A study of Mus musculus with 19 samples.

Results

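The genes described here are 10 genes that mark endothelial cells, the cells that line blood and lymph vessels: Plvap, Pecam1, Cdh5, Kdr, Tek, Tie1, Flt1, Emcn, Eng and Esam. They were chosen by name and not by a rule on their signals, though with earlier results of these data known. They were followed in the mouse ovary from its first days to shortly after birth. On Affymetrix Mouse430_2 arrays 15 probe sets carried 1 of these symbols as their only gene, out of 45101 probe sets and 18193 genes in all. A gene with several probe sets was represented by whichever had the highest mean over the ovary arrays. The study measured whole ovaries at 6 stages: gd11, gd12, gd14, gd16 and gd18, counted in days of gestation, and pnd2, counted from birth. Each stage had 3 arrays, 18 ovary arrays in all. All animals were wild-type CD-1 mice, an outbred strain, and all ovary samples were labelled female. No group was treated, and the stage was the only labelled difference besides pooling and dissection. The sample labels give the gd11, gd12 and gd14 samples as pools of 3 and the later samples as not pooled, whereas the series text describes every sample as the pair of ovaries of 1 animal. By that text no dam gave more than 1 sample, apart from the dam of gd11 samples 18 and 19. At gd11, samples 16 and 18 were labelled gonad with mesonephros, the embryonic kidney beside the gonad, and sample 19 gonad. One more array held RNA of whole animals of pnd 0.5, pooled from 4 males and 4 females, and had no replicate. The p-values below measure the spread between these samples only.

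Endothelial cells form vessels under the control of vascular endothelial growth factors, which act through the tyrosine kinase receptors KDR (VEGFR2) and FLT1 (VEGFR1), and of angiopoietins, which act through TEK (TIE2) with TIE1 as its partner. VE-cadherin (CDH5), PECAM1 and ESAM hold neighbouring endothelial cells together, endomucin (EMCN) coats their surface, PLVAP forms the diaphragms of fenestrae and caveolae, and endoglin (ENG) is a co-receptor for TGF-beta and BMP ligands. The fetal ovary receives vessels from the neighbouring mesonephros and grows its own network while germ cells enter meiosis and follicles form.

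Some arrays and groups stood apart. On gd16 sample 7 the signal of Xist, the RNA made from the inactive X chromosome of females, was 44.8, against 11306 to 18576 on the other ovary arrays. The Y-linked genes Eif2s3y, Kdm5d and Uty read at most 84.4 on any ovary array, sample 7 included. The Gapdh 3'/5' ratio, which is read as a measure of RNA integrity, lay between 2.987 and 3.28 at gd11 and between 5.068 and 5.408 at pnd2. It was higher on every pnd2 array than on any array of gd11, gd12 or gd14, so RNA quality and age cannot be told apart here. At gd18 it lay between 4.85 and 5.204 and overlapped with pnd2. The 3'/5' ratio of actin overlapped between gd11, at 1.766 to 2.262, and pnd2, at 2.084 to 3.361. Signals were scaled by the authors to a trimmed mean of 500 on every array. In whole tissue, fewer endothelial cells and less RNA per endothelial cell cannot be told apart.

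A gene entered the test if the mean of any 1 stage exceeded 116.05, the overall median, and 9 of the 10 genes passed; Tie1 did not. Log2 changes are on the scale of log2(signal + 31), which understates the change of a low signal, and are given ± SE of a limma fit to all 18 ovary arrays. "Called" means a Benjamini-Hochberg adjusted p under 0.05 over all 26431 probe sets tested.

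Of the 9 tested genes 6 had their highest means at gd11 and gd12 (Plvap, Pecam1, Cdh5, Tek, Flt1 and Emcn), and most called changes lay between these stages and the later ones. From gd12 to gd14 all 9 tested genes had lower means at gd14, and 2 of them, Plvap and Emcn, were called lower, where 8.01% of all 12566 tested genes were called lower. From gd18 to pnd2 all 9 again had lower means, and 2, Plvap and Flt1, were called lower against 6.85% of all genes. From gd12 to pnd2 the called genes were 5: Plvap, Pecam1, Emcn, Flt1 and Kdr, against 17.6% of all genes called lower; without pnd2 sample 3 they were 3. Pecam1 passed the filter through its gd12 mean alone, so its difference from gd12 was fixed in part by the filter and it adds no support to this count. Eng and Esam had the smallest differences between gd12 and pnd2, with log2 changes of 0.19 ± 0.28 and -0.22 ± 0.23. A test over the 6 stages together called 5 of the 9 genes, where it called 68.1% of all genes. It called 3 without pnd2 sample 1 or pnd2 sample 3, and 8 without gd14 sample 11. The smaller counts also turned on single arrays. In the step from gd12 to gd14, 1 gene was called without gd12 sample 13, gd12 sample 15, gd14 sample 10 or gd14 sample 12, and 4 without gd14 sample 11. From gd18 to pnd2 none was called without gd18 sample 4, gd18 sample 6, pnd2 sample 1 or pnd2 sample 3, and 1 was called when 1 of the 3 gd14 arrays, gd12 sample 13, gd12 sample 15, gd11 sample 19 or gd18 sample 5 was left out.

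**Figure D1:**
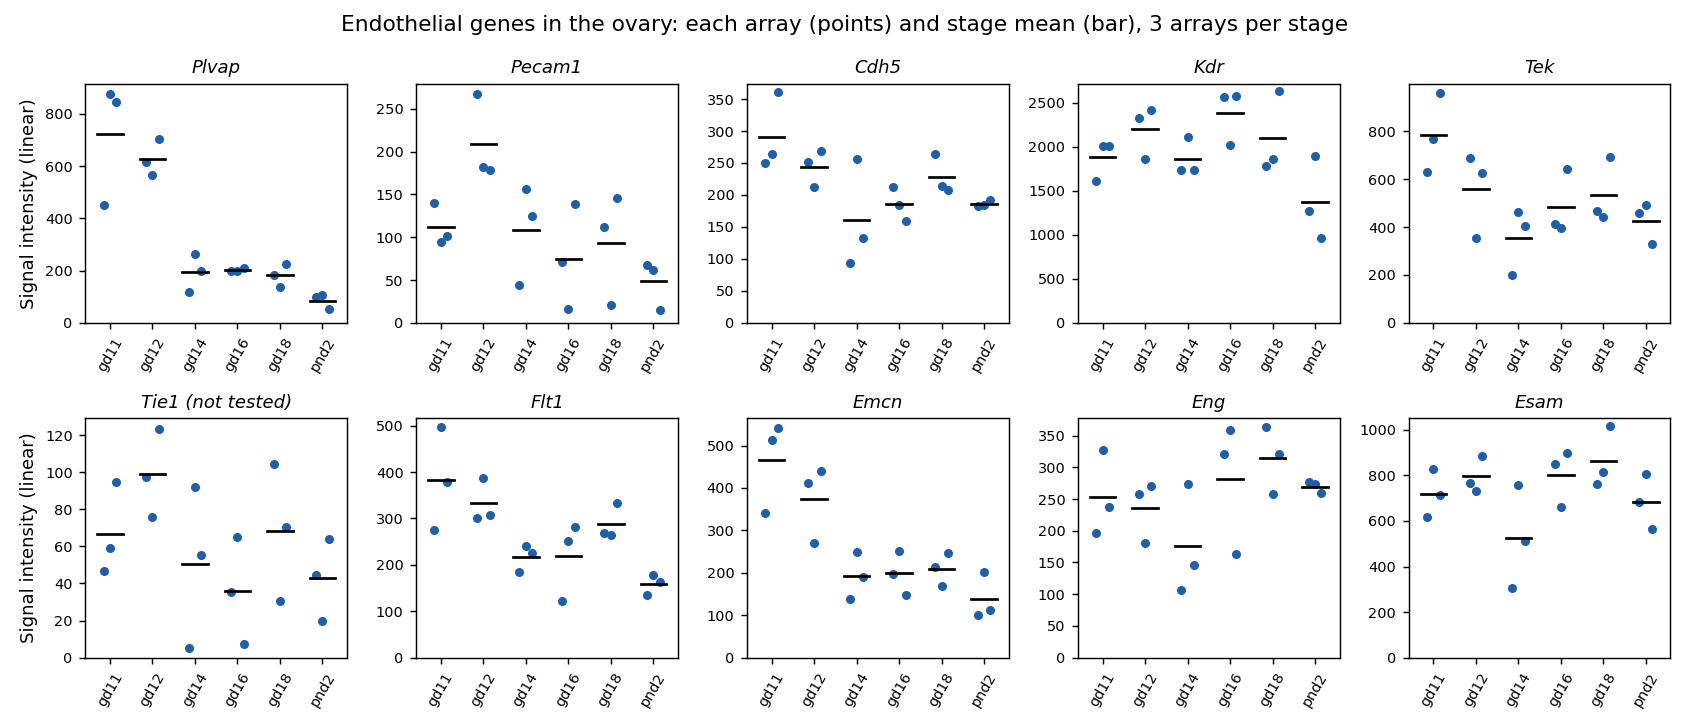
Linear signal intensity (vertical axis, from 0) of the 10 endothelial genes at 6 stages (horizontal axis), with 1 panel per gene, a point per array and a bar at the mean of the 3 arrays. Plvap and Emcn stand higher on all gd11 and gd12 arrays than on any later array, with Plvap means of 725 at gd11 and 84.7 at pnd2, while the points of Eng overlap between neighbouring stages; Tie1 stayed below the level needed for a test.

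Plvap, the protein of fenestral diaphragms, had the clearest pattern (probe set 1418090_at). It read 453, 875 and 847 on the 3 gd11 arrays, 614, 565 and 703 at gd12 and 118, 263 and 198 at gd14. It then read 199.6, 198 and 212 at gd16, 185, 136 and 226 at gd18 and 97.0, 106 and 51.5 at pnd2. Every array of the first 2 stages was above every later array, and every pnd2 array was below every earlier one. The step from 627 ± 70.3 (SD, n = 3) at gd12 to 193 ± 72.3 at gd14 was a log2 change of -1.60 ± 0.27, or 3.04-fold lower (adjusted p = 0.000425). From gd14 to gd18 Plvap had no called change, with log2 changes of 0.12 ± 0.27 and -0.16 ± 0.27 between consecutive stages. It fell again after birth, from 182 ± 45.2 at gd18 to 84.7 ± 29.1 at pnd2, a log2 change of -0.89 ± 0.27 (adjusted p = 0.0354). That second call was lost when any of 4 arrays was left out: the adjusted p was 0.0816 without gd18 sample 4, 0.143 without gd18 sample 6, 0.0627 without pnd2 sample 1 and 0.137 without pnd2 sample 3. Between gd12 and pnd2 Plvap fell by 5.8-fold (adjusted p = 9.06e-07) and between gd11 and pnd2 by 6.44-fold (adjusted p = 2.95e-07).

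Emcn, the endothelial surface sialomucin, had a similar course (probe set 1425582_a_at). It read 340.3, 512 and 542 at gd11, 412, 269.8 and 439 at gd12 and 138, 248 and 189 at gd14. The later arrays read 197, 250.5 and 149 at gd16, 215, 169 and 246 at gd18 and 100.3, 202 and 113 at pnd2. All arrays of gd11 and gd12 were above all later ones, and the 4 later stages overlapped with each other. The mean fell from 374 ± 90.9 at gd12 to 192 ± 55.3 at gd14, a log2 change of -0.86 ± 0.26 (adjusted p = 0.0312). The call did not hold without gd12 sample 13 (adjusted p = 0.111), gd12 sample 15 (0.129), gd14 sample 10 (0.145) or gd14 sample 12 (0.0706). Against pnd2 the difference was larger: Emcn fell by 2.42-fold from gd12 (log2 change -1.28 ± 0.26, adjusted p = 0.000908) and by 2.97-fold from gd11 (adjusted p = 9.94e-05). The change from gd18 to pnd2 alone, -0.54 ± 0.26, was not called (adjusted p = 0.195).

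Kdr, the main signalling receptor for VEGF-A, kept a high signal into late gestation (probe set 1449379_at). It read 1613, 2009 and 2008 at gd11, 2327, 1861 and 2415 at gd12 and 1738, 2109 and 1738 at gd14. Its later arrays read 2566, 2019.6 and 2569 at gd16, 1785, 1861 and 2631 at gd18 and 1271, 1892 and 961 at pnd2. All gd16 arrays were above all gd11 arrays, the other pairs of stages from gd11 to gd18 overlapped, and pnd2 samples 1 and 3 were below every other array while pnd2 sample 2 lay within the range of gd11 to gd18. From gd12 to gd14, where Plvap and Emcn fell, the log2 change of Kdr was -0.23 ± 0.21 and was not called (adjusted p = 0.486). The mean was 2385 ± 316 at gd16 and 1374 ± 474 at pnd2, a called log2 change of -0.83 ± 0.21 (adjusted p = 0.00511). That call held in every other setting, also without gd16 sample 7. Kdr also fell between gd12 and pnd2 (log2 change -0.71 ± 0.21, adjusted p = 0.0106), and this call was lost without pnd2 sample 3 (log2 change -0.49, adjusted p = 0.0722). From gd18 to pnd2 it missed the threshold, with -0.63 ± 0.21 and an adjusted p of 0.0503, and passed it without pnd2 sample 2 (log2 change -0.88, adjusted p = 0.00799).

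Flt1, the VEGF receptor that binds its ligand tightly and signals weakly, is represented by probe set 1451756_at. It read 274, 497 and 378 at gd11, 302, 387 and 308 at gd12 and 184, 241 and 225 at gd14. It read 122, 252 and 282 at gd16, 269.5, 264 and 333 at gd18 and 135, 179 and 164 at pnd2. All 3 gd14 arrays were below all gd12 arrays, all gd18 arrays were above all gd14 arrays, and all pnd2 arrays were below all gd18 arrays. Of these steps the last was called, a log2 change of -0.75 ± 0.24 (adjusted p = 0.0484), and it stayed near the threshold. The call was lost in 18 other settings, with adjusted p values up to 0.17. They included leaving out any 1 array of gd12, gd14, gd18 or pnd2, or gd11 sample 19. The change from gd12 to gd14 was -0.55 ± 0.24 (adjusted p = 0.136). Over the longer spans Flt1 fell by 1.91-fold from gd12 to pnd2 (adjusted p = 0.00553) and by 2.13-fold from gd11 to pnd2 (adjusted p = 0.00135). The other 3 probe sets of Flt1 followed it loosely, with Pearson correlations over the 18 arrays of 0.25 for 1419300_at, 0.37 for 1440926_at and 0.19 for 1454037_a_at. Of these, 1419300_at was tested and was not called over the 6 stages (adjusted p = 0.179), and its log2 change from gd12 to pnd2 was -0.79 ± 0.39 (adjusted p = 0.118).

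Tek, the receptor of angiopoietins, fell early (probe set 1418788_at). It read 631, 767 and 961 at gd11, 689.8, 355 and 627 at gd12 and 201, 462 and 405 at gd14. It read 413, 395 and 642 at gd16, 466, 441 and 690.5 at gd18 and 460.1, 492 and 328 at pnd2. Neighbouring stages overlapped throughout, while all gd14 and all pnd2 arrays lay below all gd11 arrays. Tek fell by 2.19-fold from gd11 to gd14 (log2 change -1.13 ± 0.29, adjusted p = 0.00622). Between gd11 and pnd2 the log2 change was -0.84 ± 0.29 (adjusted p = 0.0268). That call did not hold without gd11 sample 18 (adjusted p = 0.0566), gd11 sample 19 (0.108) or pnd2 sample 3 (0.112). Nor did it hold with samples 18 and 19 averaged as 1 (0.0771). With sample 19, labelled gonad, alone for gd11 the log2 change was -1.13. In this last setting gd11 had 1 array, assumed to vary like the other stages, and the change was larger than with all 3. Its means at gd16 and gd18, 483 ± 138 and 532 ± 138, were not called against that at gd14, 356 ± 137.

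Tie1, the orphan partner of Tek, was below the level needed for a test at every stage (probe set 1416238_at). It read 46.5, 59.1 and 95.0 at gd11, 97.5, 76.1 and 123 at gd12 and 4.95, 91.9 and 55.4 at gd14. It read 35.2, 65.0 and 7.57 at gd16, 105, 30.4 and 70.4 at gd18 and 44.3, 20.0 and 63.9 at pnd2. At every stage except gd12 the highest and lowest array were more than 2-fold apart. In a fit without the filter the log2 change from gd12 to pnd2 was -0.85 ± 0.42 (adjusted p = 0.186).

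Cdh5, the adhesion molecule of endothelial adherens junctions, is represented by probe set 1433956_at. It read 250.03, 263 and 361 at gd11, 252, 212 and 269 at gd12 and 92.8, 256 and 132 at gd14. It read 212, 185 and 159 at gd16, 264, 213 and 208 at gd18 and 183, 184 and 193 at pnd2. The gd14 arrays were far apart: sample 11 was among the gd12 values, while samples 10 and 12 were below every other array. The log2 change from gd12 to gd14 was -0.61 ± 0.24 and was not called (adjusted p = 0.09); without gd14 sample 11 it was -0.95 (adjusted p = 0.00586). From gd11 to gd14 Cdh5 fell by 1.78-fold (adjusted p = 0.0129), a call lost without gd11 sample 19 (0.0694), gd14 sample 10 (0.0883) or gd14 sample 12 (0.0507), or with the mean of both probe sets (0.0714). The other probe set, 1422047_at, had a mean signal of 35.2 and was not tested.

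Pecam1, a homophilic adhesion molecule of endothelium, platelets and some leukocytes, is represented by probe set 1421287_a_at. It read 140.4, 94.0 and 102 at gd11, 267, 181 and 178 at gd12 and 44.1, 156 and 125 at gd14. It read 70.6, 15.8 and 138 at gd16, 111, 21.2 and 146 at gd18 and 68.0, 61.8 and 15.2 at pnd2. All gd12 arrays were above all other arrays, and from gd14 on each stage had 1 array far below the other two. Pecam1 passed the filter through gd12 alone, so a difference between gd12 and the other stages was fixed in part by the filter. With that limit, the log2 change from gd12 to pnd2 was -1.65 ± 0.48 (adjusted p = 0.0108), and -1.30 without pnd2 sample 3 (adjusted p = 0.0603).

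Esam, an adhesion molecule of endothelial tight junctions and platelets, is represented by probe set 1460356_at. It read 619, 827 and 714 at gd11, 768, 733 and 886 at gd12 and 306, 759 and 511 at gd14. It read 849.5, 660.1 and 897 at gd16, 761, 814 and 1015 at gd18 and 683, 804 and 567 at pnd2. It was low on gd14 samples 10 and 12, while gd14 sample 11 lay among the gd12 arrays. Esam rose from 525 ± 227 at gd14 to 864 ± 134 at gd18, a log2 change of 0.76 ± 0.23 (adjusted p = 0.0385), and it was the only representative probe set with a called rise in any of the 15 pairs of stages. The rise was not called without gd14 sample 10 (log2 change 0.44, adjusted p = 0.212), gd14 sample 12 (0.0836), gd18 sample 4 (0.0565), gd18 sample 5 (0.0734) or gd18 sample 6 (0.142). The changes from gd12 to gd14 and from gd14 to gd16 were -0.65 ± 0.23 (adjusted p = 0.0644) and 0.66 ± 0.23 (adjusted p = 0.0576). Both were called without gd14 sample 11, at -0.95 (adjusted p = 0.00822) and 0.95 (adjusted p = 0.00867).

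Eng, the TGF-beta and BMP co-receptor, had no called fall at any stage. Its representative probe set, 1417271_a_at, read 197, 328 and 237 at gd11, 257, 179.8 and 271 at gd12 and 107, 273 and 146 at gd14. It read 320.2, 358 and 164 at gd16, 364, 258 and 320.4 at gd18 and 277, 273 and 259 at pnd2. Each stage overlapped with its neighbours, and no pair of stages was called for this probe set. The second probe set, 1432176_a_at, correlated with it at r = 0.81 over the 18 arrays and had means of 147 ± 72.4 at gd14, 321 ± 75 at gd18 and 308 ± 40.6 at pnd2. For it the rise from gd14 was called, with log2 changes of 1.05 ± 0.28 to gd18 (adjusted p = 0.0192) and 1.01 ± 0.28 to pnd2 (adjusted p = 0.0113). The representative probe set gave 0.81 ± 0.28 and 0.62 ± 0.28 for the same pairs (adjusted p = 0.0674 and 0.107).

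ETS factors such as FLI1 and ERG bind the core GGAA in many endothelial promoters, so promoter sequences were read for a gene that fell, Emcn, and for one with no called fall, Eng. They come from a RefSeq table (GRCm38.p6) of windows before 1 listed start per entry, which held 6 of the 10 genes: Kdr, Tek, Tie1, Flt1, Emcn and Eng. The windows of Kdr and Flt1 lay wholly inside the annotated gene and that of Tek lay outside it for 47 of 250 bases. The stretches shown lie outside the annotated gene, on the plus strand, at chr3:137340828-137341061 for Emcn and chr2:32646345-32646594 for Eng. Capitals mark GGAA on either strand, printed as GGAA or TTCC.
Emcn: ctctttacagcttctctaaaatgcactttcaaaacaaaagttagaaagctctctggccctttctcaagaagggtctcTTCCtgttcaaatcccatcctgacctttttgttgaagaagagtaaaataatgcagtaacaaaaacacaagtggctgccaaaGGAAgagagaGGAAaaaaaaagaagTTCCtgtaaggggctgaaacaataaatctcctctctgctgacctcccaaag
Eng: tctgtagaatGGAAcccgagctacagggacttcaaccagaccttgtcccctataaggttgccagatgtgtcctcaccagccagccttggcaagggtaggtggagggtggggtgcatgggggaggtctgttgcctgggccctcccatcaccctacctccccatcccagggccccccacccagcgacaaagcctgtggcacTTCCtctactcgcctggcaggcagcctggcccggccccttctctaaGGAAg
The Emcn stretch held 4 such cores and the Eng stretch 3. In the full windows of 250 bases before the listed start, Kdr and Flt1, inside the gene, held 4 each, Tek, mostly inside it, 2, and Tie1, outside it, 7. This core was present in 93.4% of the 32851 windows of the same length in the table, with a median of 3 matches, so its presence does not set these genes apart. The longer forms, which contain the core, were rarer: CAGGAA stood in the windows of Tek, Tie1 and Emcn and in 25.7% of all windows, and AACAGGAA in that of Emcn and in 2.25% of all. A match is a string of letters and no measured binding site.

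Ordered by mean log2 value over the 6 stages, few neighbouring stages differed. Of the 45 neighbouring pairs in the orders of the 9 tested genes, 3 were called: gd12 above gd16 for Plvap (adjusted p = 0.000453), gd18 above pnd2 for Plvap (0.0354) and gd12 above gd18 for Emcn (0.0475). The Emcn pair was not called in 13 other settings, with adjusted p values up to 0.175; these included leaving out any 1 of gd11 samples 18 and 19, gd12 samples 13 and 15, gd14 sample 12, gd16 sample 7, gd18 samples 4 and 5 and pnd2 sample 3. For Plvap the order was gd11, gd12, gd16, gd14, gd18 and pnd2, and for Emcn gd11, gd12, gd18, gd16, gd14 and pnd2. Kdr ran gd16, gd12, gd18, gd11, gd14 and pnd2, and Flt1 ran gd11, gd12, gd18, gd14, gd16 and pnd2. Tek and Cdh5 began with gd11, gd12 and gd18 and ended with gd14, Esam began with gd18 and gd16 and ended with gd14, and Eng began with gd18 and pnd2 and ended with gd14. Pecam1 ran from gd12 down to pnd2. The lowest stage was thus pnd2 for Plvap, Pecam1, Kdr, Flt1 and Emcn, and gd14 for Cdh5, Tek, Eng and Esam. Over all tested genes pnd2 was the lowest stage for 22.2% and gd14 for 15.4%.

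Set beside each other by stage, the 9 tested genes moved as follows. From gd11 to gd12 none was called in the limma fit, none had an unadjusted p under 0.05, and 4.72% of all genes were called in either direction. Between gd12 and gd14 the median log2 change of the 9 was -0.63, against -0.02 over all tested genes. An unadjusted p under 0.05 was found for 6. The share of all genes at that threshold is not given here, so such counts of unadjusted p have no background beside them. For 4 of the 9, Plvap, Pecam1, Flt1 and Emcn, all gd14 arrays lay below all gd12 arrays, which held for 19.6% of all genes. For Pecam1 the filter fixed this in part. From gd14 to gd16 none was called, nor without gd16 sample 7; without gd14 sample 11 the count was 2 and without gd16 sample 9 it was 1. In this step 2 had an unadjusted p under 0.05, and 21.2% of all genes were called in either direction. The median change was 0.26, against 0.09 over all genes. Of the 9, 7 had higher mean log2 values at gd16, or 6 after quantile normalization and 5 after median scaling. From gd16 to gd18 none was called, none had an unadjusted p under 0.05, and 8.19% of all genes were called. From gd18 to pnd2 the median change was -0.54, against -0.03 over all genes. Plvap, Cdh5 and Flt1 had all pnd2 arrays below all gd18 arrays, as did 17.8% of all genes. From gd11 to pnd2 the genes called lower were 4, Plvap, Emcn, Flt1 and Tek, against 20.6% of all genes. The median change of the 9 was -0.84, against 0.04 over all genes, and none was called higher. Among the other pairs of stages 5 genes were called lower from gd11 to gd14 (Plvap, Cdh5, Tek, Flt1 and Emcn; 15.4% of all genes), 3 from gd12 to gd16 (Plvap, Emcn and, with the same limit, Pecam1; 13.7%) and 2 from gd12 to gd18 (Plvap and Emcn; 12.1%). The call of Flt1 from gd11 to gd14 was lost without gd11 sample 18 (adjusted p = 0.164), gd11 sample 19 (0.0769), gd14 sample 10 (0.115) or gd14 sample 12 (0.0645). That call was also lost with gd11 samples 18 and 19, which share a dam, averaged as 1 (0.11), and with no filter (0.061). From gd12 to gd16 that of Pecam1 was lost without gd16 sample 7 (0.0665), gd16 sample 8 (0.208) or gd12 sample 13 (0.133), 14 (0.0642) or 15 (0.0682), and that of Emcn without gd12 sample 13 (0.0916), gd12 sample 15 (0.104), gd16 sample 7 (0.0537) or gd16 sample 9 (0.111). From gd16 to pnd2 Plvap and Kdr were called lower (17.2% of all genes), from gd14 to pnd2 Plvap was (15.1%; adjusted p = 0.0811 without gd14 sample 11 and 0.0762 without pnd2 sample 3), and from gd14 to gd18 Esam was called higher (8.45%). Comparisons that share a stage share its arrays, and differences in change between the genes were not tested.

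**Figure D2:**
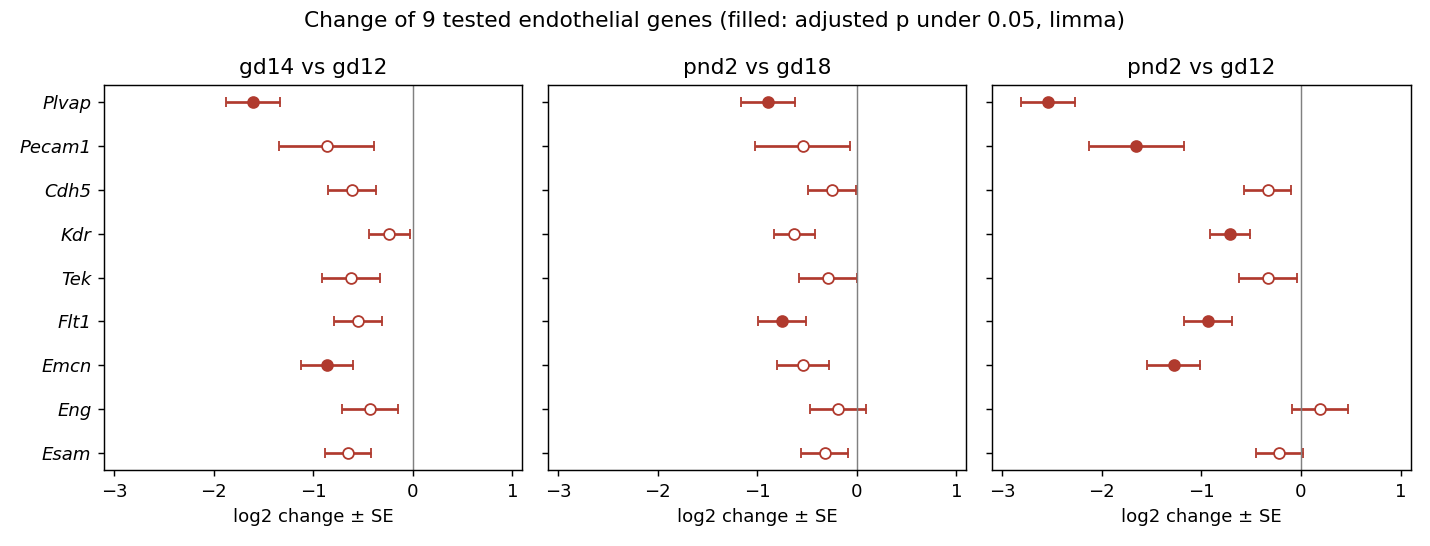
Log2 change ± SE (horizontal axis) of the 9 tested endothelial genes in 3 comparisons, with filled points for an adjusted p under 0.05 in limma. All 9 points lie below 0 from gd12 to gd14 and from gd18 to pnd2, and from gd12 to pnd2 the changes run from -2.54 for Plvap to 0.19 for Eng.

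On some arrays nearly all of these genes deviated from the stage mean in the same direction. At gd14, sample 10 was below its stage mean for all 9 tested genes, with a median deviation of -0.53 on the log2 scale, and sample 11 was above it for all 9, with a median of 0.45. At gd18, sample 5 was below its stage mean for all 9 (median -0.23) and sample 6 above it for 8. At pnd2, sample 2 was above for 8 and sample 3 above for 2. At gd11 sample 16, labelled with mesonephros, and at gd12 sample 14 were above the mean for 1 gene each. At gd16 no array stood apart, with 6, 4 and 6 of the 9 genes above the mean on samples 7, 8 and 9. Over all tested genes the share above the stage mean was between 43.7% and 55.7% on every array. Other vascular genes split the same way at gd14: 0 of 19 endothelial transcription factors were above the mean on sample 10 and 18 of 19 on sample 11. Markers of macrophages did too, with 2 of 10 above the mean on sample 10 and 10 of 10 on sample 11, whereas germ cell markers were above for 5 and 3 of 10 and mesonephros markers for 8 and 5 of 9. Without sample 10 the endothelial genes called from gd12 to gd14 were 1, and without sample 11 they were 4.

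**Figure D3:**
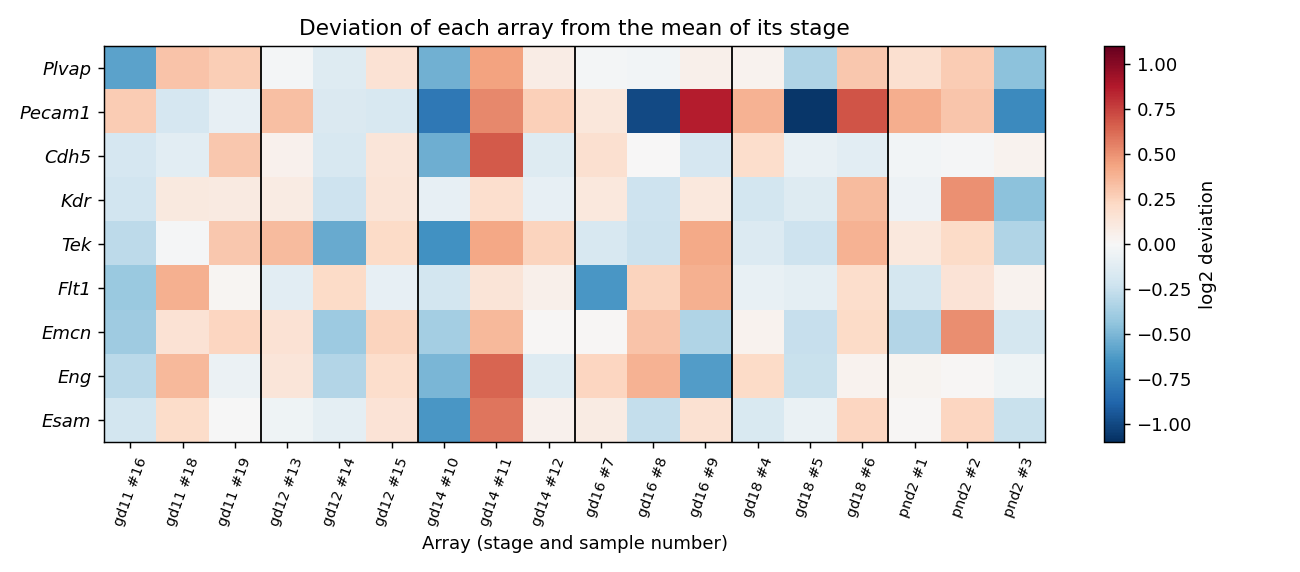
Deviation of each array from the mean of its stage (colour, log2 scale) for the 9 tested endothelial genes (rows) on the 18 ovary arrays (columns, black lines between stages). At gd14 sample 10 is low and sample 11 high in every row, and at gd18 sample 5 is low in every row.

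Correlations between the genes describe the same arrays. Over the 18 arrays the Pearson correlations of the 36 pairs of tested genes ran from -0.13 (Pecam1 with Eng) to 0.93 (Plvap with Emcn), with a median of 0.50. After the stage means were taken out they ran from -0.03 (Cdh5 with Flt1) to 0.81 (Plvap with Esam), with a median of 0.54, and 35 of 36 were positive. All points of a pair share the RNA and the scaling of an array.

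The 6 lists of other vascular genes held 94 genes on the arrays, of which 88 were tested. One gene, Sox18, was on 2 lists. Between gd12 and gd14, 28 of the 88 were called lower and 1 higher, where 8.01% of all genes were called lower and 11.6% higher, with a median log2 change of -0.55 against -0.02 over all genes. The number called depended on single arrays: leaving out gd14 sample 10 gave 9, leaving out gd12 sample 13 gave 14 and leaving out gd12 sample 15 gave 12. The genes named from these lists as called were picked after the other settings were seen. All of them kept their call in every setting, except Hes1, named below. Vegfd is named for its filter limit, and its calls in other settings are not given here. Among receptors and co-receptors 4 of 17 were called lower, led by Aplnr, the apelin receptor of sprouting endothelium, which fell from 5749 ± 751 to 2267 ± 1020 (log2 change -1.44 ± 0.33, adjusted p = 0.00532). Among endothelial transcription factors 8 of 19 were called lower, with Fli1, an ETS factor, at -1.32 ± 0.28 (adjusted p = 0.00331). Of 15 ligands 5 were called lower. Among them Vegfd passed the filter through its gd12 mean alone, 245 against 91.1 at gd14. Its fall from gd12 was thus fixed in part by the filter, and it is also counted among the 28. Of 10 arterial and Notch pathway genes 2 were, one of them Hey1, a Notch target (log2 change -0.95 ± 0.20, adjusted p = 0.00252). Of 7 venous and lymphatic genes 2 were, one of them Nr2f2, which sets venous identity and is also made in stroma (log2 change -1.49 ± 0.23, adjusted p = 0.000156). Of 21 other endothelial genes 8 were called lower, and Cav1, the coat protein of caveolae, was called higher: it rose from 2165 ± 1150 to 6846 ± 379 (log2 change 1.77 ± 0.24, adjusted p = 4.49e-05).

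**Figure D4:**
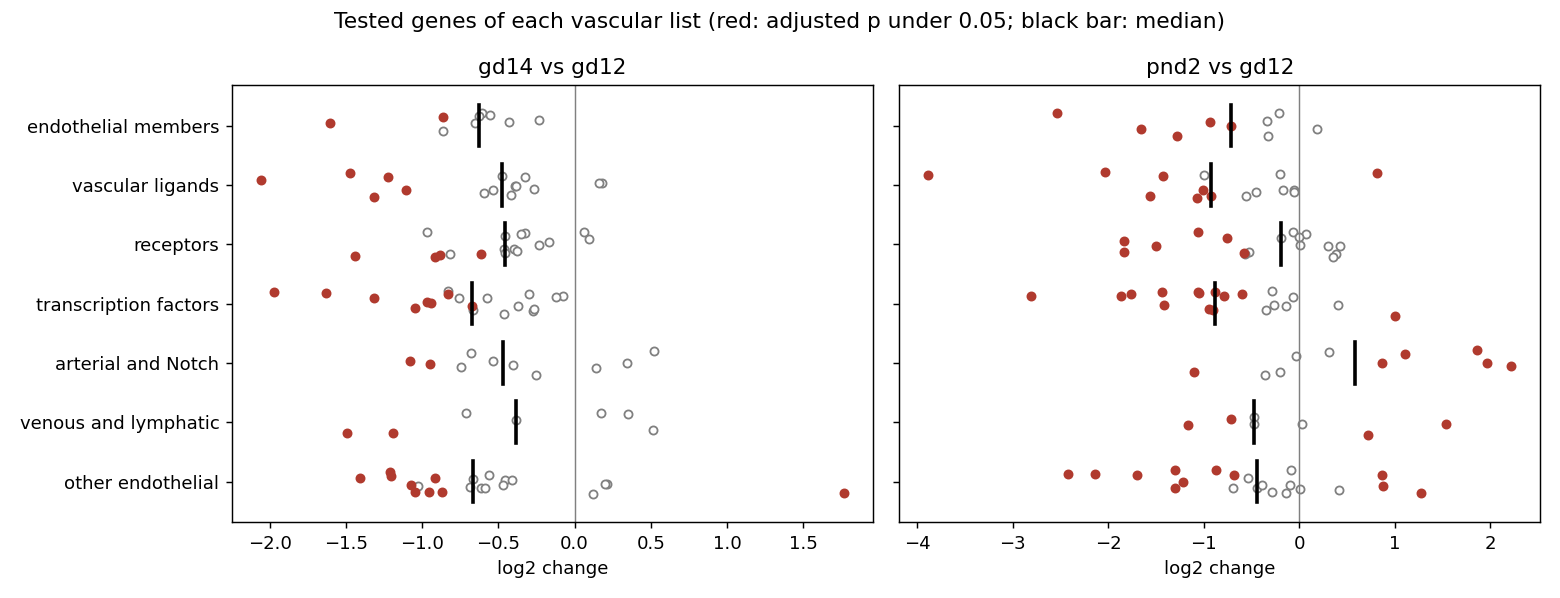
Log2 change (horizontal axis) of each tested gene of 7 vascular lists (rows, points spread vertically at random) from gd12 to gd14 and from gd12 to pnd2, with red points for an adjusted p under 0.05 and a black bar at the median of the list. From gd12 to gd14 all medians lie below 0 and 1 red point, Cav1, lies above 0; from gd12 to pnd2 the arterial and Notch list has its median above 0, at 0.59.

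From gd14 to gd16 the lists held 12 of 88 genes called higher and 4 called lower, where 11.4% of all genes were called higher and 9.77% lower. The median change was 0.21 against 0.09 over all genes. The number called in either direction was 16, a share below the 21.2% of all genes, and 9 without gd14 sample 12 or 10 without gd16 sample 7. The genes that rose included Ramp2, a co-receptor for adrenomedullin (log2 change 1.26 ± 0.17, adjusted p = 9.64e-05), Ptprb, the phosphatase that opposes Tek (1.04 ± 0.22, adjusted p = 0.00328), and Tal1, a factor of endothelium and blood (1.07 ± 0.23, adjusted p = 0.00314). Pdgfb, which draws pericytes to vessels, rose by 0.81 ± 0.19 (adjusted p = 0.00697), and Sema3e, a guidance ligand, fell by 1.31 on the log2 scale (adjusted p = 0.002). From gd16 to gd18, 4 of the 88 genes were called higher and 1 lower, where 8.19% of all genes were called in either direction.

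Around birth the median changes of the arterial and Notch list and of the 9 endothelial genes were opposite in sign, a difference that was not tested. From gd18 to pnd2, 5 of 10 arterial and Notch genes were called higher and 1 lower, where 8.48% of all genes were called higher and 6.85% lower. Their median change was 0.63, against -0.54 for the 9 endothelial genes. Gja4, the gap junction protein connexin 37 of arterial endothelium and of oocytes, rose from 548 ± 142 to 1508 ± 324 (log2 change 1.42 ± 0.27, adjusted p = 0.00194). Hey2, a Notch target, rose by 1.54 ± 0.37 (adjusted p = 0.0101). Hes1 was the gene called lower (log2 change -0.59 ± 0.18, adjusted p = 0.0382), a call lost in 6 of 28 other settings. Among the genes of this list not called, Notch4, Notch1 and Dll4 had lower means (-0.68, -0.47 and -0.31) and Jag2 a higher one (0.27). Which cells carried these changes was not tested. Vegfa, the ligand of Kdr and Flt1, fell from 783 ± 264 to 326 ± 4.8 (log2 change -1.14 ± 0.26, adjusted p = 0.00631), and Stab2, a scavenger receptor of sinusoidal and lymphatic endothelium, fell by 1.69 on the log2 scale (adjusted p = 0.000154). Over the 6 vascular lists 6 genes were called higher and 9 lower, 15 together, and 6 together without pnd2 sample 1.

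From gd12 to pnd2, 36 of 88 vascular genes were called lower and 12 higher, where 17.6% of all genes were called lower and 22.6% higher. Of the 19 transcription factors 12 were lower, among them Gata2 at -1.87 ± 0.26 (adjusted p = 1.73e-05) and Tal1 at -1.76 ± 0.23 (adjusted p = 7.66e-06), and Klf2, a factor induced by blood flow, was higher at 1.0 ± 0.26 (adjusted p = 0.00587). Of the 15 ligands 7 were lower, with Adm, adrenomedullin, falling from 4657 ± 1880 to 275 ± 63.4 (log2 change -3.88 ± 0.36, adjusted p = 1.99e-07), and Pdgfb was higher. Vegfd, which passed the filter through gd12 alone, is counted among the 7 and among the 36. Of 17 receptors 6 were lower and none higher, with Unc5b at -1.84 ± 0.24 (adjusted p = 9.88e-06). Of the 10 arterial and Notch genes 5 were higher and 1 lower, with Jag2, a Notch ligand that other ovarian cells can make, at 2.22 ± 0.30 (adjusted p = 1.18e-05). Of 7 venous and lymphatic genes 2 were lower and 2 higher, and of 21 other endothelial genes 8 were lower and 3 higher. Several of these genes are also made outside vessels, and which cells carried the change was not tested.

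Markers of other cell types moved with stage too. The summed signal of the 10 endothelial genes ran from 4820 to 6219 on the gd12 arrays, 2934 to 4860 at gd14 and 2714 to 4214 at pnd2. That of 10 germ cell genes ran from 10027 to 24143 at gd12 and from 46263 to 52550 at gd14. In this step 7 of the 10 were called higher and 1 lower, where 11.6% of all genes were called higher and 8.01% lower. Stra8, counted among the 7, passed the filter through gd14 alone, so its rise was fixed in part by the filter. The 9 mesonephros genes ran from 9150 to 13533 at gd12 and from 3618 to 4615 at gd14, with 5 called lower against the same 8.01%. At gd11 they ran from 12370 to 19193. Single genes weighed heavily in this sum: Hoxa9 and Emx2 had means of 5184 and 3797 in a mean sum of 11870 at gd12. Emx2, not called from gd12 to gd14, had a mean of 2832 in a mean sum of 4226 at gd14. The sum of the 10 erythroid genes fell from between 43726 and 50175 at gd12 to between 345 and 486 at pnd2. Hbb-y made up most of it at gd12, with a mean of 36100 in a mean sum of 46910. Of 9 tested 7 were called lower from gd12 to pnd2, against 17.6% of all genes, and Klf1 and Epor were not called. From gd14 to gd16 the mean sum fell from 35370 to 8624, and the mean of Hbb-y from 32750 to 2508. In that step 4 of the 9 were called higher and 2 lower, where 11.4% of all genes were called higher and 9.77% lower. The sum thus followed Hbb-y and not every erythroid gene. The 14 macrophage genes ran from 2723 to 5104 at gd12 and from 2083 to 3659 at gd14. Of 10 tested none was called in this step, with a median change of -0.44. An unadjusted p under 0.05 was found for 4, again without a share of all genes to set beside it. From gd14 to gd16, 3 of the 10 were called higher, against 11.4% of all genes. Megakaryocytes and platelets share Pecam1 and Esam with endothelium. Of 7 of their genes 5 were tested and 2 were called lower from gd12 to gd14, against 8.01% of all genes. The 13 pericyte and smooth muscle genes had a median change of 0.14 in that step. Of 10 tested 1 was called lower, a share near the 8.01% of all genes. The part of each of these shifts in the fall of the endothelial genes was not tested.

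**Figure D5:**
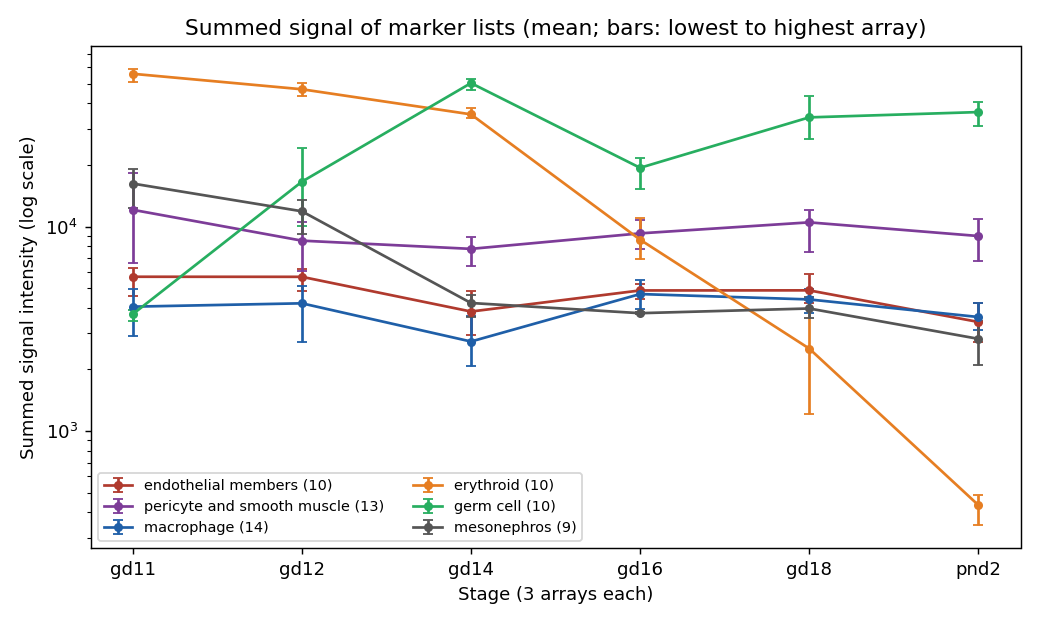
Summed signal intensity (vertical axis, log scale) of 6 marker lists at 6 stages, with a point at the mean of 3 arrays and bars from the lowest to the highest array. The stage mean of the endothelial sum lies between 3415 and 5680, with single arrays from 2714 to 6244, and Kdr makes up 1861 of the 3839 at gd14. The mean germ cell sum rises from 3728 at gd11 to 50300 at gd14. The mean erythroid sum falls from 55840 at gd11, of which Hbb-y makes up 31780, to 434.7 at pnd2.

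The genes whose course was most like that of the endothelial genes were found by the Pearson correlation, over the 18 arrays, of each tested gene with the mean z score of the 9. The 10 with the highest values, members left out, were Aplnr (0.93), St3gal2 (0.92), Egfl7 (0.91), Cyyr1 (0.90), Myct1 (0.89), Fzd1 (0.88), Lima1 (0.88), Thsd1 (0.88), Zfp740 (0.88) and Acer2 (0.87). Of these 10, Aplnr, Egfl7 and Myct1 were on the vascular lists. Aplnr had means of 5904 ± 742 at gd11, 5749 ± 751 at gd12, 2267 ± 1020 at gd14, 3350 ± 1180 at gd16, 3571 ± 1350 at gd18 and 2044 ± 463 at pnd2. Its lowest stages were thus gd14 and pnd2, the lowest stages of the 9 genes. Aplnr was picked by its correlation with them on the same arrays, so this likeness was fixed in part by the choice. Of the 12566 genes 39 had a value above 0.8. They include Tek, Emcn, Plvap and Cdh5, whose own signals enter the mean z score. The values of the other tested members were lower: Flt1 0.74, Esam 0.74, Pecam1 0.64, Kdr 0.63 and Eng 0.46. The points share their arrays, RNA and scaling.

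On the single array of whole newborn animals every one of the 10 genes read higher than on all 3 pnd2 ovary arrays. The ratio of the newborn array to the pnd2 mean was 5.74 for Plvap, with 487 against 84.7 ± 29.1, and 4.81 for Pecam1, with 233 against 48.4 ± 28.8. It was smallest for Cdh5, at 1.55, with 288 against 186 ± 5.41. Emcn read 226 on the newborn array, below 9 of the 18 ovary arrays, and Eng and Esam read 538 and 1408, above all ovary arrays. The median log2 ratio of pnd2 to the newborn array was -0.92 for the 9 tested genes and 0.22 over all genes. On the log2(signal + 31) scale 4 of the 9 genes were more than 2-fold lower in the ovary, as were 13.5% of all genes. With 1 array and both sexes in its pool, this difference has no replicate check and no test.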

How the data were processed

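RNA of whole mouse ovaries, amplified in 2 rounds, was hybridised to Affymetrix Mouse430_2 arrays. The authors deposited 1 linear signal intensity per probe set and array, made with GCOS per the submitters' processing notes (version not given in the sources used here); the values give a 2% trimmed mean of 500 on every array. Probe sets were named from the platform annotation: 34945 had 1 gene, 932 several, 9160 none and 64 were controls. Signals were tested as log2(signal + 31), with 31 taken from the 25th percentile, using limma 3.58.1 in R 4.3.3 (mean-variance trend, 12 residual degrees of freedom, stage as the only factor). Probe sets with a mean above 116.05 in at least 1 stage were tested, 26431 in all, and calls used a Benjamini-Hochberg adjusted p under 0.05. Each gene was read from its probe set with the highest mean. The limma fit was checked on simulated data.

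The genes, lists and tests were chosen with earlier results of these data known. All 10 genes are named. From each vascular list up to 3 called genes per direction and comparison, by size, could be named, and the 10 genes most alike in course were named by correlation. Genes not called are also named for the arterial and Notch list from gd18 to pnd2, and Vegfd is named for its filter limit. Alternatives were the pseudocount, quantile and median scaling, the filter, the trend, the arrays in the fit, the gd11 samples and dissection, the mean of a gene's probe sets and leaving out each array. Those for the other vascular lists and the other pairs of stages were chosen after seeing the data. The number of arrays limits the precision.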

Additional observations from a re-analysis of the deposited data

How the results depend on the processing

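No called change of a single gene reversed its direction under the alternatives run. Directions that were not called did turn. From gd14 to gd16 the endothelial genes with higher mean log2 values were 7, 6 after quantile normalization and 5 after median scaling. From gd11 to pnd2 they were 1 (Eng) and 0 after median scaling. Of 13 calls of the endothelial genes in the main comparisons 7 held throughout, and of 19 in the other pairs of stages 11 did; for the other vascular genes 58 of 108 held. From gd12 to gd14 the endothelial genes called were 2, against 1 with no filter, 4 with the mean of a gene's probe sets and 1 to 4 on leaving out an array. From gd14 to gd16 they were 0, against 1 with the filter at the 75th percentile (507.26), 1 with the mean of probe sets and 0 to 2 without an array. From gd18 to pnd2 they were 2, against 0 with the pseudocount at the median, 1 after median scaling, 0 with no filter, 1 with no trend, 1 with only the arrays compared and 0 to 3 without an array. Under that stricter filter, with 4 genes left to test, 2 were called from gd11 to pnd2 (4 before; 3 to 5 without an array), 2 from gd12 to pnd2 (5 before; 3 to 5) and 3 over all stages (5 before; 3 to 8). Neighbouring stages called were 3, 1 with no filter and 1 to 4 without an array. The counts from gd11 to gd12 and from gd16 to gd18 were 0 in every setting. Of the other vascular genes, those called without an array were 9 to 34 from gd12 to gd14 (29 with all), 9 to 19 from gd14 to gd16 (16), 6 to 18 from gd18 to pnd2 (15) and 38 to 49 from gd12 to pnd2 (48, and 29 with the filter at the 75th percentile). Median scaling shifted the median log2 change of all genes from 0.09 to -0.08 between gd14 and gd16, from 0.003 to -0.11 between gd11 and gd12 and from 0.04 to -0.10 between gd11 and pnd2. The gd14 arrays and single late arrays decided many calls; except where fewer genes or arrays were tested, the cause was not tested. No paired analysis was possible because sample numbers are unique and no number is shared between stages.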
